A study of Canis lupus familiaris with 10 samples.

Results

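The nucleolar ribosome biogenesis genes described here are 50 named genes whose proteins make, fold, modify or cut ribosomal RNA and assemble ribosomal subunits in the nucleolus, together with the importin IPO4 and the pseudouridine synthase PUS7. A member was read from a probe set (the probes designed to 1 transcript) annotated with that single gene symbol, and where a symbol had several, the brightest of them on average was taken. Of the 50 genes, 48 were measured among 15947 symbols. IMP4 had no such probe set and TSR1 stood only on a probe set with several symbols, so both are not analysed here. The rule took genes by name and probe sets by their mean brightness, without regard to treatment. The names, however, were chosen with earlier results of these data known. IPO4, PUS7 and NOC4L were picked by the study from MYC target gene sets for lower expression on these same arrays. The direction of those 3 genes is therefore a description and no independent evidence.

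Ribosomes are built in the nucleolus, where RNA polymerase I transcribes a long precursor RNA. Small nucleolar ribonucleoproteins (snoRNPs) of the box C/D kind guide ribose methylation and those of the box H/ACA kind guide pseudouridylation, while processome and helicase proteins cut and fold the precursor into the small and large subunits. Many of these genes are known targets of MYC and are abundant in growing lymphoma cells.

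Gene expression was measured on Affymetrix canine whole-transcript arrays in CLBL-1 and 17-71, cell lines grown from canine B-cell lymphoma of lymph node. Treated cells received 100 nM of the selective PRMT5 inhibitor labelled PR220, which the study calls C220. PRMT5 methylates arginines of histones and other proteins in symmetric form. The arrays comprised 3 control and 2 treated samples of CLBL-1, collected at day 2, and 2 control and 3 treated samples of 17-71, collected at day 4, so line and day cannot be told apart. The study describes the experiments as biological replicates, but the labels do not name separate cultures, so the p-values given here speak for the spread of these arrays alone, part of which may be technical.

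The values are log2 expression after robust multi-array averaging (RMA), which evens out probe intensities across the arrays normalised together. Whether both lines were normalised together is not given, and array medians lay between 3.71 and 3.79. A change of total RNA per cell would not show on this scale. In bulk samples fewer expressing cells and less RNA per cell cannot be told apart. The B cell markers, of which 6 of 7 were measured, were high in control CLBL-1 (mean of the markers 9.23; MS4A1 12.03, CD79A 8.97) and low in control 17-71 (mean 4.22; MS4A1 2.19, CD79A 3.72, PAX5 5.04), so the lines differ in the genes that define their labelled cell type. Single markers of other cell types were high, CD2 (8.18) and CD68 (9.65) in control 17-71 and CD3G (8.96) in control CLBL-1, although the means over their lists were lower. The mean of the T and NK cell markers lay between 3.97 and 4.03 on the control 17-71 arrays and was 4.57 in control CLBL-1, and that of the myeloid markers was 5.63 in control 17-71 and 4.73 in control CLBL-1.

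In CLBL-1, most nucleolar genes lay higher after 2 days of inhibitor, by small amounts, whereas IPO4, PUS7, NOC4L and BOP1 lay lowest. Of the 48 members, 38 had a positive and 10 a negative change, with a median of 0.22 on the log2 scale, beside a median of 0.0057 and 51.2% positive changes over all 32391 probe sets. In 17-71 at day 4 the members showed no common direction. There, 26 were positive and 22 negative, with a median of 0.0082, beside 0.0092 and 52.1% positive over all probe sets. With IPO4, PUS7 and NOC4L set aside, 38 of 45 members were positive in CLBL-1 (median 0.23) and 26 of 45 in 17-71 (median 0.032).

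No member passed an adjusted p below 0.05 in either line when each was fitted alone (limma, two-sided, Benjamini-Hochberg over all probe sets). That test called 0.133% of all probe sets in CLBL-1 and 0% in 17-71. At the threshold of the study, an unadjusted p below 0.05, 24 members were higher and 4 lower in CLBL-1, where 6.83% of all probe sets were higher and 6.89% lower. With the spread estimated from all 10 arrays together, 8 members passed in CLBL-1, beside 1.87% of all probe sets. Of these, the 7 higher members were DKC1, GAR1, WDR43, NOP2, EBNA1BP2, WDR74 and LYAR (0.617% of all probe sets), and the lower one was IPO4 (1.26%). In 17-71 the unadjusted threshold took 1 higher and 5 lower members, beside 4.08% and 4.93% of all probe sets. In either direction, 4444 probe sets passed the unadjusted threshold in CLBL-1 and 2916 in 17-71. The study reports the opposite order at that cutoff, with more changed genes in the line collected later. The reason for this disagreement was not tested. Both treated arrays lay above all 3 controls for 32 members in CLBL-1 (16.9% of all probe sets did so) and below them for 6 (15.5%). Of the 16195 brighter probe sets, 3650 lay above and 3424 below. In 17-71, 14 members lay wholly above (14.1% of all probe sets) and 12 wholly below the controls (13.8%). Of the brighter probe sets, 2636 lay above and 2926 below in that line.

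**Figure D1:**
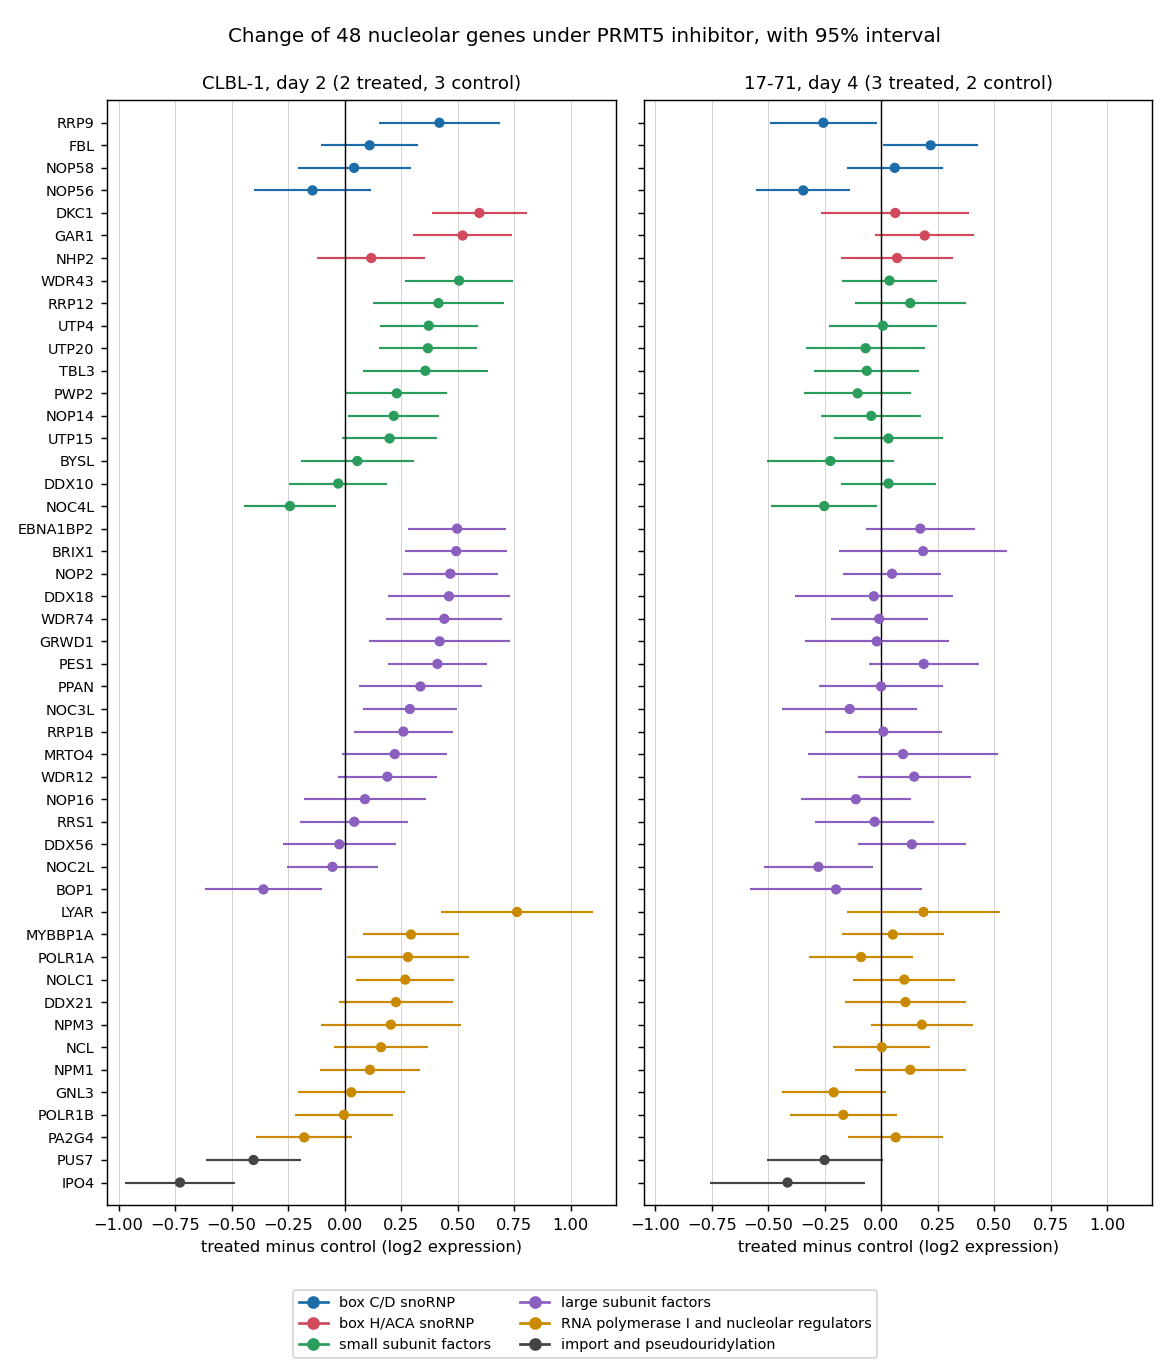
Treated minus control of the 48 measured members in log2 expression (x axis, point with 95% interval from limma within each line), with genes grouped by role and coloured by it. In CLBL-1 38 points lie right of 0 with IPO4 lowest at -0.73, and in 17-71 the points lie on both sides with a median of 0.0082.

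When all 10 arrays were fitted together and both lines averaged (the common effect), 5 of 48 members passed, beside 1.59% of all probe sets. GAR1, EBNA1BP2 and PES1 rose (0.324% of all probe sets were called higher), and IPO4 and PUS7 fell (1.27% were called lower). Over the members the median common effect was 0.13, with 37 positive and 11 negative, beside 0.011 and 53.1% positive over all probe sets. With any 1 of the 10 arrays left out, the common effects of the 5 called members kept their sign. They ran from -0.65 to -0.49 for IPO4, from -0.37 to -0.29 for PUS7 and from 0.33 to 0.38 for GAR1. For EBNA1BP2 they ran from 0.31 to 0.36 and for PES1 from 0.27 to 0.33. None of the 5 calls was kept in all of these fits. Those of PUS7, EBNA1BP2 and PES1 ended whichever of the 10 arrays was left out, and GAR1 stayed called only without treated replicate 2 or 3 of 17-71. Adjusted p in the fits that lost the call ran from 0.0624 to 0.126 for PUS7, from 0.0602 to 0.13 for EBNA1BP2, from 0.0666 to 0.164 for PES1 and from 0.0502 to 0.0833 for GAR1. IPO4 lost its call without control replicate 1 or treated replicate 1 of 17-71, control replicate 2 or 3 of CLBL-1, or either treated CLBL-1 array (adjusted p 0.0509 to 0.0783).

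IPO4, an importin that carries ribosomal proteins and histones into the nucleus, was the lowest member in both lines. In CLBL-1 it read 5.997, 6.14 and 6.16 in the controls and 5.42 and 5.32 in the treated arrays. In 17-71 it read 6.89 and 6.55 in the controls and 6.31, 6.21 and 6.39 in the treated arrays. All treated values lay below all control values of the same line, and the IPO4 values spread most among the 17-71 controls. The change was -0.73 in CLBL-1 (SE 0.0978, 1.66-fold lower, limma adjusted p = 0.0831) and -0.41 in 17-71 (SE 0.136, adjusted p = 0.52). The size in 17-71 rested on the controls, and was -0.25 without control replicate 1 and -0.58 without control replicate 2. The common effect was -0.57 (SE 0.0828, limma adjusted p = 0.0184). Both treated CLBL-1 arrays were the lowest of all 10.

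PUS7 is a stand-alone pseudouridine synthase that modifies transfer and messenger RNA without a guide RNA. It read 8.28, 8.19 and 8.22 in control and 7.85 and 7.80 in treated CLBL-1. In 17-71 the controls read 8.09 and 7.93 and the treated arrays 7.68, 7.79 and 7.81. The groups did not overlap in either line. Control CLBL-1 lay 0.22 above control 17-71, a difference that did not pass (limma adjusted p = 0.0833). The change was -0.40 in CLBL-1 (SE 0.0841, adjusted p = 0.156) and -0.25 in 17-71 (SE 0.101, adjusted p = 0.556), and the common effect was -0.33 (SE 0.0592, limma adjusted p = 0.0379).

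NOC4L, the partner of NOP14 in the small subunit precursor, had nearly equal changes in both lines. It read 6.98, 6.98 and 6.93 in control and 6.70 and 6.75 in treated CLBL-1, and 6.10 and 6.10 in control and 5.93, 5.78 and 5.84 in treated 17-71. Again no treated value reached a control value. The changes were -0.24 (SE 0.082) and -0.25 (SE 0.0923), with a difference between lines of 0.011 (95% interval -0.235 to 0.256). Its common effect, -0.25, did not pass (SE 0.0537, limma adjusted p = 0.0689).

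These 3 genes had the opposite sign to most members in CLBL-1, where IPO4, PUS7, BOP1 and NOC4L held the 4 lowest ranks among 48. They were not alone, and in 17-71 they had more company. There the order from the lowest was IPO4, NOP56, NOC2L, RRP9, NOC4L and PUS7. Negative changes in both lines, not counted over all probe sets, were shared by 7 members: IPO4, PUS7, NOC4L, BOP1, NOP56, NOC2L and POLR1B. All treated arrays lay below all controls in both lines for 4 members, IPO4, PUS7, NOC4L and NOC2L (3.79% of all probe sets did so). They lay above in both lines for 9 members (3.08% of all probe sets).

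**Figure D2:**
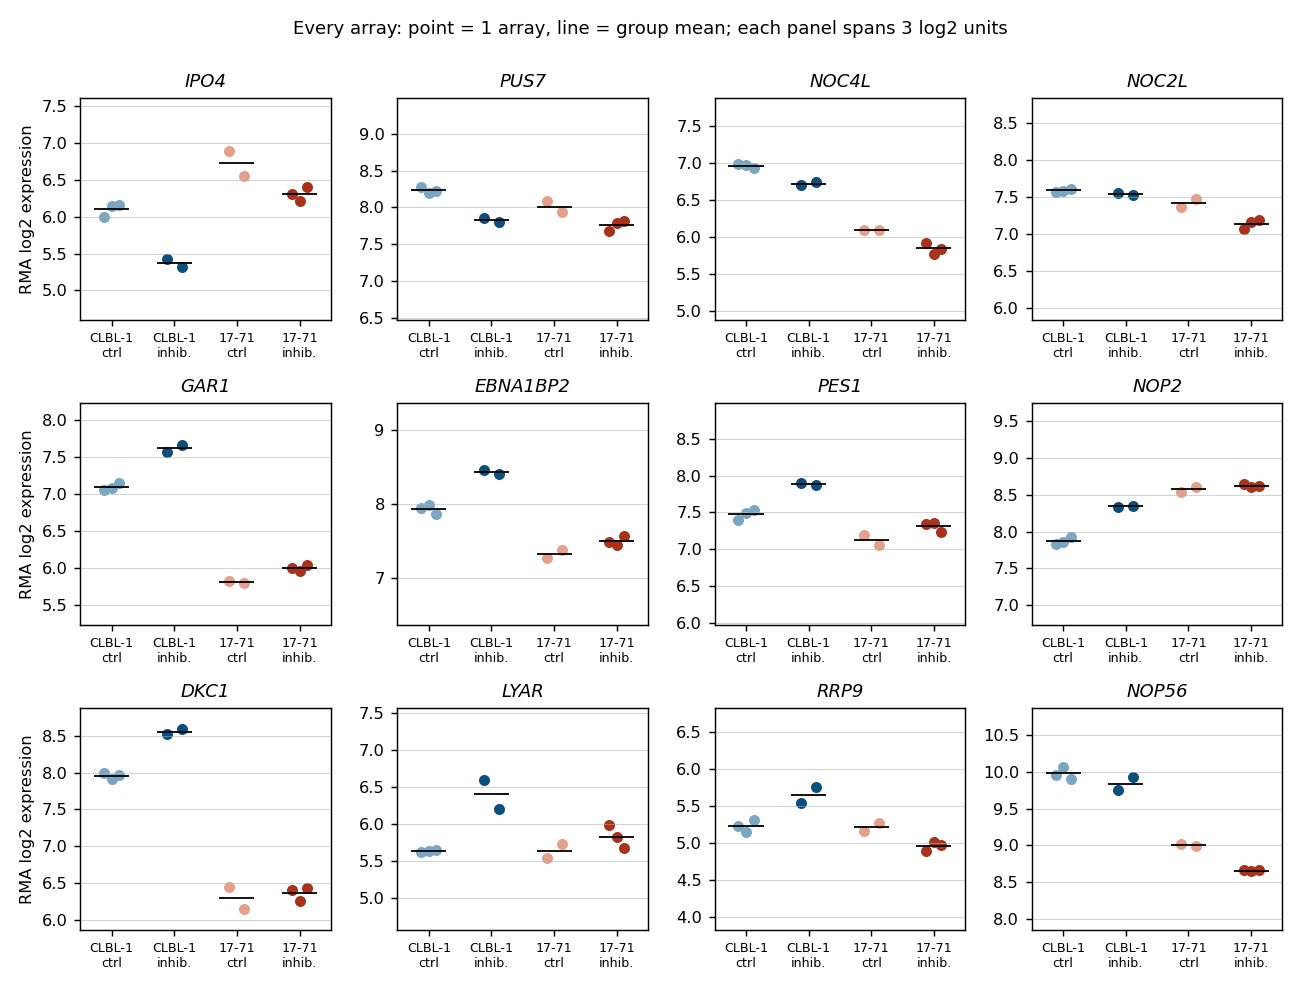
RMA log2 expression of 12 members on every array (y axis, 3 log2 units in each panel), with a point per array and a line at each group mean, for control and inhibitor-treated CLBL-1 (blue) and 17-71 (red). The treated points of IPO4, PUS7, NOC4L and NOC2L lie below the controls in both lines, those of GAR1, EBNA1BP2 and PES1 above, and RRP9 lies above in CLBL-1 and below in 17-71.

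Among the box H/ACA proteins all 3 members had positive changes in both lines (medians 0.52 in CLBL-1 and 0.07 in 17-71). GAR1, a small subunit of the pseudouridylation particle, read 7.06, 7.07 and 7.15 in control and 7.57 and 7.67 in treated CLBL-1. In 17-71 it read 5.82 and 5.79 in the controls and 5.996, 5.95 and 6.04 in the treated arrays. The treated arrays lay above the controls in both lines, and the lines themselves stood over 1 log2 unit apart. The change was 0.52 in CLBL-1 (SE 0.0879, adjusted p = 0.114) and 0.19 in 17-71 (SE 0.0859, adjusted p = 0.589), with a common effect of 0.36 (SE 0.0535, limma adjusted p = 0.0204).

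DKC1, dyskerin, is the pseudouridine synthase of the same particle. It read 7.99, 7.91 and 7.97 in control and 8.52 and 8.58 in treated CLBL-1, a change of 0.60 (SE 0.0846, limma adjusted p = 0.0929). The 17-71 controls read 6.45 and 6.16 and the treated arrays 6.41, 6.26 and 6.44, which overlapped (change 0.06, SE 0.129). NHP2, a further subunit, had a change of 0.12 in CLBL-1 (95% interval -0.121 to 0.358). DKC1 and PUS7 are both pseudouridine synthases, and DKC1 lay higher where PUS7 lay lower in CLBL-1.

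The 4 box C/D proteins shared no direction, with medians of 0.077 in CLBL-1 and -0.098 in 17-71. NOP56, a core protein of the particle, read 9.96, 10.07 and 9.90 in control and 9.75 and 9.92 in treated CLBL-1, which overlapped. In 17-71 it read 9.02 and 8.99 in the controls and 8.67, 8.65 and 8.66 in the treated arrays, which were far apart for so narrow a spread. The change of -0.35 in 17-71 had the smallest p of any member in that line (SE 0.0823, adjusted p = 0.48). FBL, fibrillarin, the ribose methyltransferase, was the only member higher at an unadjusted p below 0.05 in 17-71, with 8.70 and 8.69 in the controls and 8.91, 8.94 and 8.89 in the treated arrays (change 0.22, SE 0.083, limma adjusted p = 0.546). NOP58, the partner of NOP56, had changes of 0.04 in CLBL-1 and 0.06 in 17-71.

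RRP9, the protein that marks the U3 particle, had changes of opposite sign in the lines. It read 5.23, 5.15 and 5.31 in control and 5.55 and 5.75 in treated CLBL-1 (change 0.42, SE 0.107). In 17-71 it read 5.17 and 5.27 in the controls and 4.90, 5.01 and 4.97 in the treated arrays (change -0.26, SE 0.0931). The groups were separate in both lines, with the order turned. The difference of the changes was 0.68, the member with the smallest p in that test, and it did not pass (SE 0.133, limma adjusted p = 0.144).

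Of the 13 small subunit factors 11 were measured, and 9 of them were positive in CLBL-1 (median 0.23) and 5 in 17-71 (median -0.045). WDR43, a processome subunit, read 8.95, 8.92 and 8.79 in control and 9.34 and 9.45 in treated CLBL-1 (change 0.51, SE 0.0959, limma adjusted p = 0.136). In 17-71 its 5 arrays lay between 8.56 and 8.61, with a change of 0.04. The changes in CLBL-1 were 0.42 for RRP12, needed for export of precursors, 0.37 for both UTP4 and UTP20 of the processome, and 0.36 for TBL3. Processome subunits PWP2 (0.23), NOP14 (0.22) and UTP15 (0.20) were smaller in the same direction. DDX10, a helicase (-0.03), and BYSL, a late assembly factor (0.06), were near 0 in CLBL-1, and NOC4L was the sole member of the group with a negative change whose interval excluded 0 there.

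All 17 large subunit factors were measured, and 14 were positive in CLBL-1 (median 0.29) and 8 in 17-71 (median -0.0009). EBNA1BP2, an early assembly factor, read 7.95, 7.98 and 7.87 in control and 8.46 and 8.40 in treated CLBL-1. The 17-71 values were 7.27 and 7.38 in the controls and 7.48, 7.44 and 7.57 after treatment. Treated arrays were the higher ones in both lines. The changes were 0.50 (SE 0.0869, adjusted p = 0.118) and 0.17 (SE 0.0945, adjusted p = 0.641), and the common effect was 0.34 (SE 0.0573, limma adjusted p = 0.0304).

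PES1, BOP1 and WDR12 form 1 complex that is needed to process large subunit RNA, and their changes differed in sign. PES1 read 7.40, 7.49 and 7.53 in control and 7.90 and 7.87 in treated CLBL-1, and 7.19 and 7.06 in control and 7.35, 7.35 and 7.24 in treated 17-71. BOP1 read 6.82, 6.73 and 6.95 in control and 6.53 and 6.42 in treated CLBL-1, and 6.19 and 6.08 in control and 5.72, 6.15 and 5.94 in treated 17-71. Thus PES1 lay higher in both lines, whereas BOP1 lay lower in CLBL-1 and overlapped in 17-71. PES1 rose in the common effect (0.30, SE 0.0584, limma adjusted p = 0.0491) and BOP1 did not pass (-0.28, SE 0.0925, adjusted p = 0.21). WDR12 had changes of 0.19 in CLBL-1 and 0.15 in 17-71.

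NOP2, the cytosine methyltransferase of large subunit RNA, read 7.83, 7.86 and 7.92 in control and 8.33 and 8.35 in treated CLBL-1, a change of 0.47 (SE 0.0838). In 17-71 the controls read 8.54 and 8.60 and the treated arrays 8.64, 8.60 and 8.62, a change of 0.05. The treated CLBL-1 arrays thus lay between their own controls and 17-71. Its common effect was just outside the threshold (0.26, SE 0.0506, limma adjusted p = 0.0502). BRIX1 (0.49), the helicase DDX18 (0.46), WDR74 (0.44), the histone-binding GRWD1 (0.42), PPAN (0.34) and NOC3L (0.29) were positive in CLBL-1. WDR74 read 7.55, 7.52 and 7.47 in control and 7.85 and 8.06 in treated CLBL-1, and all 17-71 arrays lay between 7.36 and 7.42. The remaining large subunit factors had smaller changes, with 0.26 in CLBL-1 and 0.01 in 17-71 for RRP1B, 0.22 and 0.10 for MRTO4, 0.09 and -0.11 for NOP16, 0.04 and -0.03 for RRS1, and -0.02 and 0.14 for DDX56. NOC2L, partner of NOC3L, read 7.56, 7.59 and 7.61 in control and 7.55 and 7.52 in treated CLBL-1, and 7.36 and 7.47 in control and 7.06, 7.16 and 7.19 in treated 17-71. Its change was thus larger in 17-71 (-0.28, SE 0.0952) than in CLBL-1 (-0.05, SE 0.081), and that difference did not pass (0.22, SE 0.109, limma adjusted p = 0.496).

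Among the 11 polymerase and nucleolar regulator genes, 9 were positive in CLBL-1 (median 0.21) and 8 in 17-71 (median 0.064). LYAR, a nucleolar zinc finger protein of growing cells, had the highest change of all members in CLBL-1. It read 5.63, 5.64 and 5.64 in control and 6.60 and 6.21 in treated CLBL-1 (change 0.76, SE 0.134, 1.70-fold, limma adjusted p = 0.119). In 17-71 the controls read 5.54 and 5.74 and the treated arrays 5.99, 5.82 and 5.67, which overlapped. The 2 treated CLBL-1 arrays differed from each other more than the 3 controls did. The other probe set of LYAR gave 0.53 in CLBL-1 and -0.31 in 17-71, so the 2 probe sets disagreed in direction in 17-71.

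POLR1A, the largest subunit of RNA polymerase I, had changes of 0.28 in CLBL-1 and -0.09 in 17-71, and POLR1B, its other large subunit, of -0.0023 and -0.17. The abundant nucleolar proteins nucleolin and nucleophosmin had small changes. NCL, nucleolin, read 11.003, 10.97 and 11.02 in control and 11.20 and 11.12 in treated CLBL-1, and lay between 10.57 and 10.62 on all 17-71 arrays. NPM1, nucleophosmin, had changes of 0.11 in CLBL-1 and 0.13 in 17-71, and its other 2 probe sets gave -0.35 and 0.0008 in CLBL-1 and 0.36 and -0.10 in 17-71. MYBBP1A, a repressor of ribosomal RNA synthesis (0.29), NOLC1, a snoRNP chaperone (0.27), and the helicase DDX21 (0.23) were positive in CLBL-1. NPM3, a relative of nucleophosmin, had changes of 0.21 in CLBL-1, where the groups overlapped, and 0.18 in 17-71 (difference 0.025, 95% interval -0.313 to 0.364). GNL3, nucleostemin, was near 0 in CLBL-1 (0.03) and negative in 17-71 (-0.21, SE 0.0908). PA2G4, a growth regulator in the nucleolus, was the only member whose change was lower in CLBL-1 than in 17-71 at an unadjusted p below 0.05 (difference -0.24, SE 0.101, limma adjusted p = 0.418).

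Whether the effect differed between the lines was tested in the joint fit. For 39 of 48 members the change was higher in CLBL-1 than in 17-71, with a median difference of 0.23, beside 49.3% and a median of -0.0053 over all probe sets. No member passed (limma, 0.0309% of all probe sets called). At an unadjusted p below 0.05, 17 members were higher (5.92% of all probe sets) and 1 lower (5.36%). After RRP9, the smallest p belonged to WDR43 (0.47, SE 0.112, adjusted p = 0.201) and NOP2 (0.42, SE 0.101, adjusted p = 0.205). IPO4 had a difference of -0.31 (95% interval -0.692 to 0.066; -0.48 without 17-71 control replicate 1 and -0.15 without replicate 2) and PUS7 of -0.15 (-0.423 to 0.119), so a different response of either gene was not shown. The size of the change was compared between the lines for the members only, not over all probe sets. It was larger in CLBL-1 for 36 of 48 members, with medians of 0.265 and 0.106. As line and day differ together, neither can be named as the source of this difference.

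**Figure D3:**
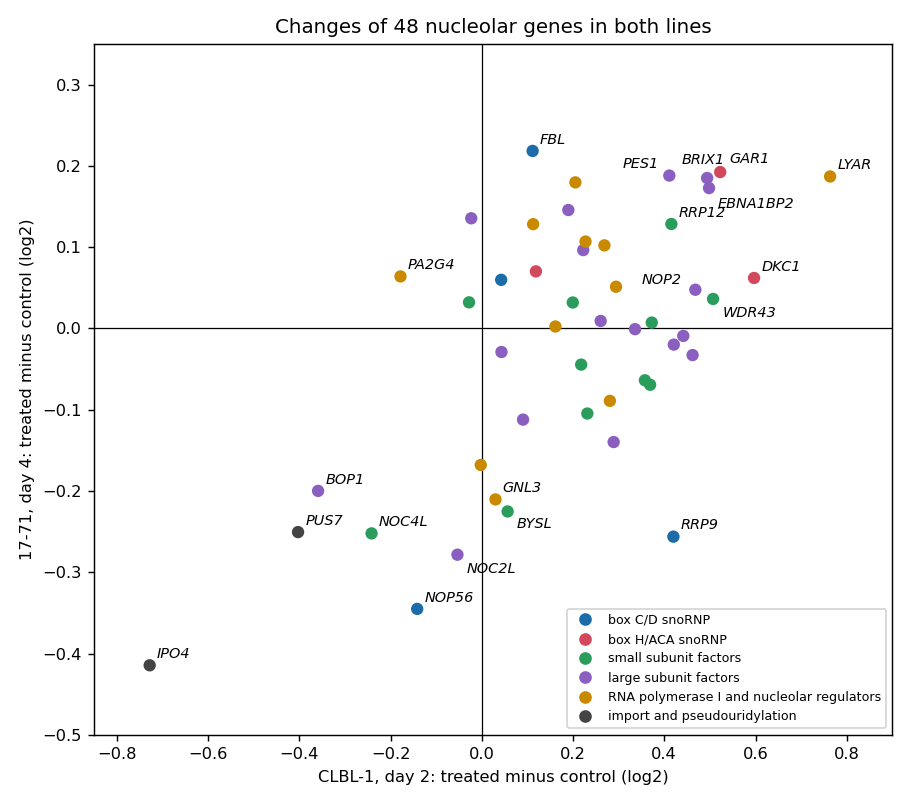
Change of each of the 48 members in CLBL-1 (x axis) against its change in 17-71 (y axis), both treated minus control in log2 expression, coloured by role. Of the points, 23 lie above 0 in both lines and 7 below 0 in both, with IPO4 farthest out. Another 15 are positive in CLBL-1 and negative in 17-71. These counts were not made over all probe sets.

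Across the members the changes of both lines went together in part, with Pearson's r of 0.60 and Spearman's rho of 0.43 over 48 genes. Without IPO4, PUS7 and NOC4L, r was 0.43 and rho 0.32 over 45 genes. Over all probe sets brighter than the median, r was 0.18. The lines share no array, genes are not independent replicates, and these values are a description.

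The mean over the members' levels shows the same pattern by array. It was 7.915 ± 0.010 in control and 8.110 ± 0.001 in treated CLBL-1 (SD, n = 3 and 2), and 7.427 ± 0.027 in control and 7.413 ± 0.007 in treated 17-71 (n = 2 and 3). The treated CLBL-1 arrays lay above their controls, and in 17-71 the groups overlapped. In CLBL-1 the mean over B cell markers ran the other way, from 9.14 to 9.29 in the controls and from 8.98 to 9.02 in the treated arrays. T and NK, myeloid and stromal marker means overlapped between control and treated CLBL-1. The part of these markers in the result was not tested.

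The untreated lines differed in most members. Control CLBL-1 was above control 17-71 in 43 of 48 members, with a median difference of 0.46, beside 50.6% positive and a median of 0.0053 over all probe sets and 0.07 over those brighter than the median. The test called 32 members, 29 higher and 3 lower in CLBL-1, beside 31.5% of all probe sets (16.8% higher and 14.7% lower). The members are all brighter than the median probe set. Of the 16195 probe sets brighter than it, 4755 were called higher and 3796 lower, a larger share than over all probe sets. By role, the higher ones were 3 of 4 box C/D proteins, 2 of 3 box H/ACA proteins, 7 of 11 small subunit factors, 8 of 17 large subunit factors and 9 of 11 polymerase and regulator genes. FBL read 10.63, 10.62 and 10.68 in control CLBL-1, against 8.70 and 8.69 in control 17-71. DDX18 read 7.93, 8.19 and 8.09 in CLBL-1, against 6.82 and 6.62. For both genes the lines were separate by far more than the spread within a line. The difference was 1.95 for FBL (SE 0.0716, limma adjusted p = 1.45e-07), 1.65 for DKC1, 1.35 for DDX18, 1.29 for GAR1 and 1.22 for RRS1, an assembly factor of the large subunit. POLR1A followed with 1.06, NOP56 with 0.97, UTP4 with 0.91 and NOC4L with 0.87.

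The 3 members that were lower in CLBL-1 were NOP2 (-0.70, SE 0.0716, limma adjusted p = 7.55e-05), IPO4 (-0.62, SE 0.117, adjusted p = 0.00327) and NOP14 (-0.26, SE 0.0711, adjusted p = 0.021). In CLBL-1 controls NOP14 read 7.29, 7.26 and 7.31, against 7.57 and 7.53 in 17-71, with no overlap. LYAR, RRP9 and PWP2 had differences of -0.0016, 0.012 and -0.003. PUS7 did not pass (0.22, adjusted p = 0.0833). The call of NOP14 ended when either 17-71 control, or CLBL-1 control 1 or 2, was left out, and that of GNL3 (0.29) without any 1 of the 5 controls. WDR43 lost its call without either 17-71 control, and PES1 and BRIX1 without 17-71 control 2. In these fits 27 to 31 members were called. The B cell marker means of 9.23 and 4.22 differ between the same groups, and their part, like that of the day, cannot be told apart from the line.

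**Figure D4:**
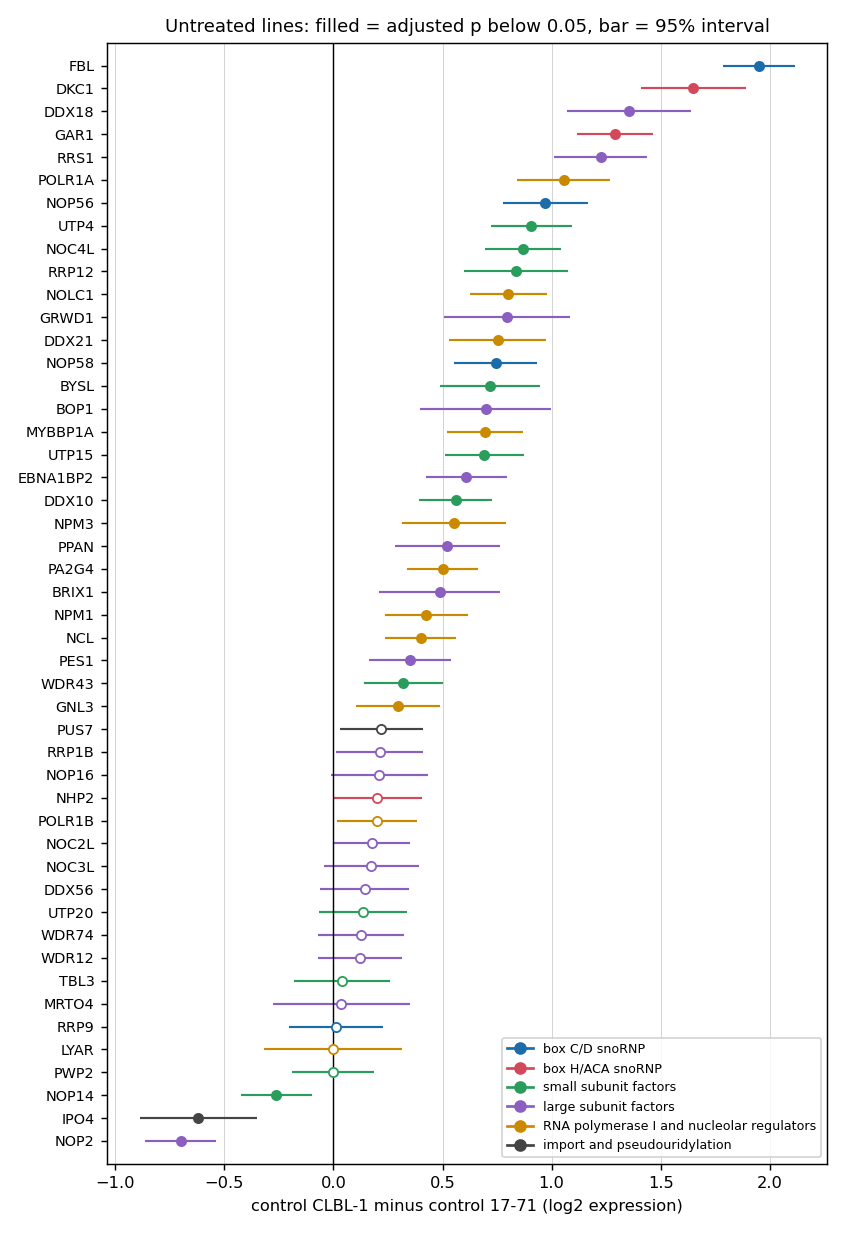
Difference of the 48 members between untreated CLBL-1 and untreated 17-71 in log2 expression (x axis, point with 95% interval), ordered by size and coloured by role, filled where limma's adjusted p was below 0.05. Higher levels in CLBL-1 prevail, from 1.95 for FBL, and NOP2, IPO4 and NOP14 are the filled points below 0.

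Members were also set beside other genes of the pathway that are not members. In 116 measured genes of the subunit factors, RNA polymerase I machinery, snoRNP assembly and the exosome, 101 were positive in CLBL-1 with a median of 0.23, and 57 in 17-71 with a median of -0.0043. These values are close to the members' own. No such gene passed in either line (limma), and 56 were higher (6.83% of all probe sets) and 4 lower (6.89%) in CLBL-1 at an unadjusted p below 0.05. In the joint fit 13 passed as higher in CLBL-1 (0.617% of all probe sets) and 1 as lower (1.26%). In the common effect 3 rose (0.324% of all probe sets) and 1 fell (1.27%). Those that rose were WDR3, a processome subunit (0.28, adjusted p = 0.0408), RPF1, a large subunit factor (0.35, adjusted p = 0.0463), and NUFIP1, a snoRNP assembly factor (0.34, adjusted p = 0.0344). PIH1D1, a subunit of the complex that assembles snoRNPs, fell by 0.69 (limma adjusted p = 0.0136).

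The families of IPO4 and PUS7 did not share 1 direction with them. The 15 other importins had a median change of 0.0005 in CLBL-1 and 0.026 in 17-71, with 8 positive in each. TNPO2, a transportin, was the only one called in the common effect, where it fell by 0.30 (limma adjusted p = 0.0306). The 11 other pseudouridine synthases had medians of 0.18 and 0.028, with 7 positive in each line. PUS10, a synthase that acts on transfer RNA, fell in the common effect (-0.61, limma adjusted p = 0.0212). Over all probe sets, 1.27% were called lower in that fit.

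**Figure D5:**
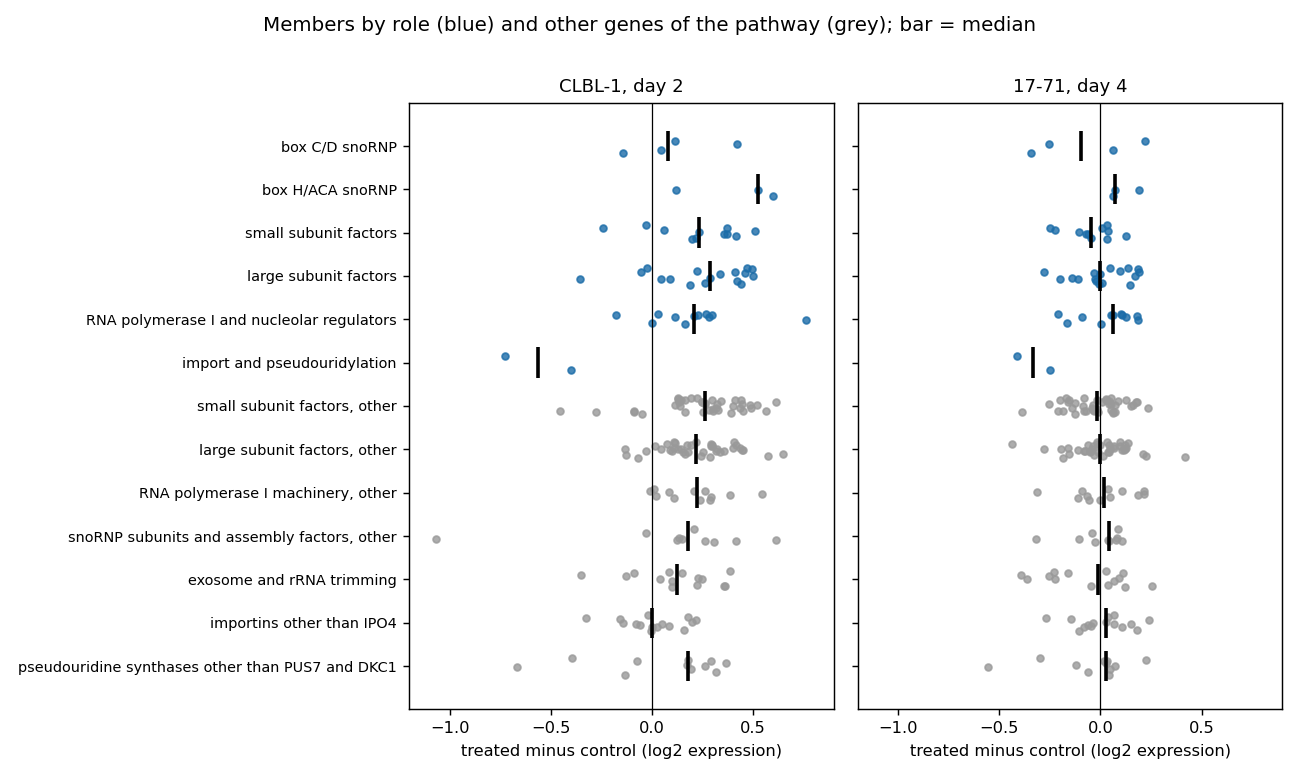
Treated minus control in log2 expression (x axis) of members by role (blue) and of other genes of the pathway (grey) in both lines, with a point per gene and a bar at the median of each list. In CLBL-1 the lists of subunit factors lie right of 0 with medians of 0.22 to 0.29, the other importins lie around 0 and IPO4 and PUS7 lie left, while in 17-71 the list medians lie between -0.098 and 0.07 save for IPO4 and PUS7.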

How the data were processed

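The values analysed are log2 expression of probe sets as deposited by the authors, who made them by RMA (robust multi-array averaging) from Affymetrix canine gene arrays. Per the labels, the processing notes also name limma and Affymetrix Expression Console, without versions. Whether both lines were normalised in 1 run is not given in the sources used here. Of 32391 probe sets, 16545 had 1 gene symbol in the platform annotation, 370 several and 15476 were unnamed here. Gene IDs placed all 48 measured members in the RefSeq table of the dog assembly UU_Cfam_GSD_1.0, with the same symbols.

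The tests were made in limma 3.58.1 under R 4.3.3, with lmFit, then eBayes, both tails and no filter, and Benjamini-Hochberg adjustment over all probe sets and a threshold of 0.05. Each line was fitted alone (residual df 3). All 4 groups fitted together as means (residual df 6) yielded the mean effect, the difference of effects and the control difference. The scripts were tested on simulated data. For arrays, their number limits the precision. Alternatives were other normalization, variance moderation, filter, probe set choice, threshold, joint fit, left-out arrays and a replicate block.

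Members and lists were chosen with earlier results of these data known, so lists are described by counts and medians only. Named were IPO4, PUS7 and NOC4L, members past the threshold, the 4 smallest p in each direction per comparison, and others for their role. Same-numbered control and treated arrays were checked for shared deviations.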

Additional observations from a re-analysis of the deposited data

How the results depend on the processing

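Directions of all members' medians were kept under the alternatives run, except in 17-71, where the median ran from -0.0053 to 0.0283 when 1 array was left out and was 0.0272 with quantile normalization. Counts of members called moved with the fit, the filter and the threshold. In CLBL-1, 0 members became 8 in the joint fit (DKC1, GAR1, WDR43, NOP2, EBNA1BP2, WDR74 and LYAR higher, IPO4 lower), 17 with an intensity trend and robust variances, 13 among probe sets brighter than the median and 28 at an unadjusted p below 0.05. All probe sets called in CLBL-1 went from 43 to 607, 1310, 1001 and 4444 in the same order, and to 0 whichever of the 5 CLBL-1 arrays was left out. In 17-71, 6 members passed the unadjusted threshold, and all probe sets called went from 0 to 15 in the joint fit, 35 with the trend and 2916 unadjusted. In the common effect, 5 members became 17 with the trend, 18 with the filter, 25 unadjusted and between 0 and 2 with 1 array left out, and 515 probe sets became 1404, 1484, 4689 and between 155 and 305. PES1 lost its call with cyclic loess (adjusted p = 0.0531). In the difference of effects, 2 members passed with the trend, 2 with the filter and 18 unadjusted, and 10 probe sets became 288, 268 and 3654, or between 0 and 2 with 1 array left out.

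The median in CLBL-1 was 0.21 with quantile normalization, 0.20 with cyclic loess and 0.20 to 0.24 with 1 array left out. The common effect's was 0.11 with cyclic loess and 0.11 to 0.13 with 1 array left out, and the difference's was 0.21, 0.20 and 0.21 to 0.26. The control difference was 0.36 with quantile normalization, 0.31 with cyclic loess, 0.49 with the mean of a gene's probe sets and 0.36 to 0.49 with 1 array left out.

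Deviations of same-numbered control and treated arrays from their group means correlated at -0.022 and -0.026 in CLBL-1 and -0.011 and 0.0079 in 17-71. In a group of 2 arrays the 2 deviations mirror each other, so these values cannot tell whether such arrays shared a culture or batch. With the replicate block 0 members and 0 probe sets were called in the common effect. That fit called 0 probe sets in CLBL-1 and 0 in the difference, whose median was 0.26. The block takes up residual df, which are few already, so these 0 calls say little about the changes. A fit without 1 array can leave a lone sample, assumed to vary like the others. The causes were not tested. With 2 or 3 arrays per group, no member's change in CLBL-1 passed the adjusted threshold when that line was fitted alone. This held near the members' median (0.22, at SEs of about 0.09) and for the largest changes, of LYAR (0.76) and IPO4 (-0.73).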
